A study of Drosophila melanogaster with 9 samples.

Results

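The enzymes described here break down sugar in Drosophila flight muscle: those of glycolysis, of glycogen storage and use, and of the citric acid cycle. They were chosen by gene symbol from a list of 33 genes, and each gene was represented by the probe set with the highest mean level. Of the 33 listed genes, 26 were measured, out of 11982 genes named on the array. They were 11 glycolytic genes, 1 gene of the glycerol phosphate branch, 5 glycogen genes and 9 genes of the citric acid cycle and its related isocitrate and malate dehydrogenases. The other 7, which were Gapdh2, PyK, Ldh, Gpo1, kdn, Fum1 and Mdh2, were not analysed here.

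RNA came from the indirect flight muscle, the large stretch-activated muscle that powers the wings, of adult males aged 1 to 2 days. Act88FKM88 flies carry a null allele of Act88F, the actin gene of this muscle. Mhc7 flies lack myosin heavy chain in it. Both were set against the wild-type strain Canton-S, and each of the 3 genotypes had 3 arrays. All flies were reared at 25 °C with 12 h of light and 12 h of dark. Zygosity, the genetic background of the mutants and the number of flies pooled per array were not given in the sources used here. In dissected bulk muscle, fewer cells of a type and less RNA per cell cannot be told apart.

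Flight in insects is among the most energy-demanding of animal activities and is fuelled aerobically. In flies it draws on trehalose in the blood and on glycogen in the muscle. Glycogen phosphorylase and phosphoglucomutase feed glucose phosphate into glycolysis, while UDP-glucose pyrophosphorylase, glycogen synthase and branching enzyme build the polymer. A glycerol phosphate shuttle reoxidises cytosolic NADH in this muscle, so that little lactate is made, and pyruvate is burned in the densely packed mitochondria through the citric acid cycle.

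Levels are the deposited log2 values per probe set, and a log2 difference of 1 is 2-fold. Probe sets differ in response, so levels are compared between genotypes and not between genes. The Act88F transcript was checked against the genotype labels. It had log2 levels of 11.57, 11.79 and 11.03 in Act88FKM88, against 14.10, 14.32 and 14.36 in Canton-S, a difference of -2.80 ± 0.17 (limma, adjusted p = 8.25e-05). In Mhc7 it stood at 14.10, 14.25 and 14.14 and was not past the threshold (-0.10 ± 0.17, adjusted p = 0.858). Myosin heavy chain transcript was not analysed here. All 13 measured flight muscle markers of 16 listed were above a level of 4 on some array, and fln, the thick filament protein flightin, lay between 13.65 and 14.34 on the 9 arrays. Some of these markers changed. Zasp66, a Z-disc protein gene, rose by 2.11 ± 0.13 in Act88FKM88 (adjusted p = 7.12e-05) and 2.02 ± 0.13 in Mhc7 (adjusted p = 0.000101), and passed in all 16 other settings. Among these, averaging over a gene's probe sets was applied to the enzymes only, so the 3 probe sets of Zasp66 were not averaged. The transcription factor gene salr rose by 1.08 ± 0.14 in Act88FKM88 (adjusted p = 0.00475) but was at 0.94 without Canton-S 3 and with quantile normalization repeated, and at 0.97 with loess. Mf, the myofilin gene, rose by 1.22 ± 0.25 in Mhc7 (adjusted p = 0.0264). Mf did not pass when Canton-S 1 was left out (adjusted p = 0.111), without Mhc7 3 (adjusted p = 0.105) and, at 0.62 and 0.72, with quantile normalization and loess. All 10 testis markers were below 4 on every array, as were 5 of 10 hemocyte, 5 of 7 neuron, 5 of 6 gut and 1 of 4 trachea markers. No gene of these lists passed the threshold, and the lowest adjusted p was that of the hemocyte gene NimC4 (-0.63 ± 0.16 in Mhc7, adjusted p = 0.0603). Levels below about 4 are near the floor of these arrays, whose medians were 3.05 to 3.12. Of the fat body markers, 11 of 12 exceeded 4 on some array, and Yp3 did not. Their summed linear level was 916 to 1275 in Act88FKM88, 724 to 2413 in Mhc7 and 631 to 1490 in Canton-S, so the genotypes overlapped. One of them rose in Act88FKM88, the fatty acid synthase gene FASN1 (1.07 ± 0.27, adjusted p = 0.0801). This call was kept in 7 of 16 other settings and was lost when any 1 of the 3 Act88FKM88 arrays was left out (adjusted p = 0.137 to 0.216).

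Most of the enzymes gave strong signals, as 18 of the 26 had mean log2 levels of 9 or more. Tpi, Gapdh1, Eno, mAcon1 and Idh3a averaged 13 or more, where the maximum of an array was between 14.10 and 14.46. Pglym78, AGBE, UGP, Idh and Mdh1 were intermediate. Hex-C, Pglym87 and ScsbetaG were below 4 on all 9 arrays, so nothing can be said of their differences beyond that.

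A gene is said to have risen or fallen where it differed 2-fold or more with a limma adjusted p under 0.1, the limits the study states. In Act88FKM88 against Canton-S, 1 enzyme gene rose, UGP, while 1.48% of all probe sets rose. No enzyme gene fell, against 0.330% of all probe sets. The unadjusted p was under 0.05 for 9 of the 26, all higher in Act88FKM88, beside 8.96% of all probe sets higher and 5.67% lower on that rule. A separate method, SAM (significance analysis of microarrays), called none. In Mhc7 against Canton-S, 1 enzyme gene fell, AGBE, while 0.389% of all probe sets fell. None rose, where 2.40% of all probe sets did. In that comparison 14 enzyme genes were higher and 1 lower at an unadjusted p under 0.05, beside 10.3% of all probe sets higher and 6.52% lower, and SAM called none.

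Probe sets with strong signals are a closer measure for these enzymes than all probe sets. Among the 508 probe sets with a mean level of 9 or more, 7.28% rose in Act88FKM88 and 16.3% in Mhc7, while none of the 18 enzymes at such levels passed in either. At an unadjusted p under 0.05, 49.2% of the 508 were higher in Act88FKM88 and 58.9% in Mhc7, against 7 and 12 of the 18 enzymes. The enzymes' counts are thus no result particular to them. Both comparisons use the same Canton-S arrays.

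Small positive differences were common. In each mutant 23 of the 26 genes averaged above Canton-S and 3 below, with a median log2 difference of 0.14 in Act88FKM88 and 0.34 in Mhc7. Over all probe sets the medians were -0.03 in Act88FKM88 and -0.01 in Mhc7, but over the 508 probe sets at a mean level of 9 or more they were 0.39 and 0.44. The 18 enzymes at such levels had medians of 0.15 in Act88FKM88 and 0.37 in Mhc7, thus below those of strong probe sets in general. The ranges of the arrays did not overlap for 8 enzymes in Act88FKM88, all higher, beside 9.75% of all probe sets higher and 10.0% lower. In Mhc7 they did not overlap for 13 higher and 1 lower, beside 11.8% and 10.3% of all probe sets. Of the probe sets at a mean level of 9 or more, 48.6% were higher without overlap in Act88FKM88 and 65.0% in Mhc7, against 7 and 10 of the 18 enzymes at such levels. Without the fold limit, the adjusted p alone was under 0.1 for 2 higher enzymes in Act88FKM88 (3.94% of all probe sets were higher on that rule) and for 6 higher in Mhc7 (5.58%). Of the 508 strong probe sets, 107 were higher on that rule in Act88FKM88 and 183 in Mhc7. Of the 18 enzymes at such levels, 1 and 4 were.

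**Figure D1:**
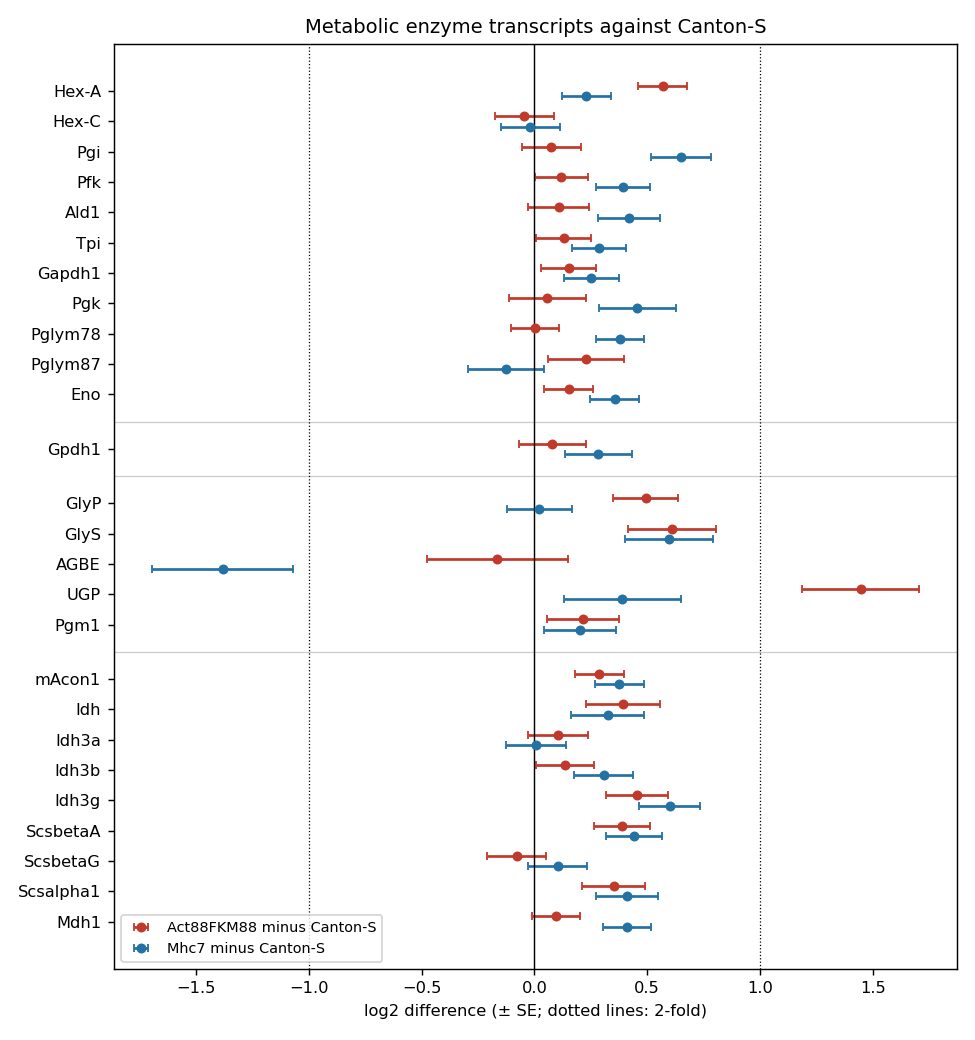
Log2 differences of the 26 measured enzyme genes with standard errors from the limma fit, for each mutant minus Canton-S (n = 3 arrays per genotype). Most differences lie within 2-fold of 0, and UGP (1.45 in Act88FKM88) and AGBE (-1.38 in Mhc7) stand apart.

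One Canton-S array weighed on these shifts. Canton-S 1 gave the lowest value of all 9 arrays for 20 of the 26 enzymes. The mean level of the 26 genes was 10.21, 10.30 and 10.15 in Act88FKM88, 10.25, 10.21 and 10.20 in Mhc7, and 9.73, 10.10 and 10.10 in Canton-S. The same array was low for strong probe sets at large, with a 99th percentile of 11.08 over all probe sets against 11.61 to 11.89 on the other 8 arrays. Without it, the median difference of the glycolytic genes was 0.00 in Act88FKM88 and 0.23 in Mhc7, and that of the citric acid cycle genes was 0.16 and 0.25. The glycogen median was 0.33 and 0.02.

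**Figure D2:**
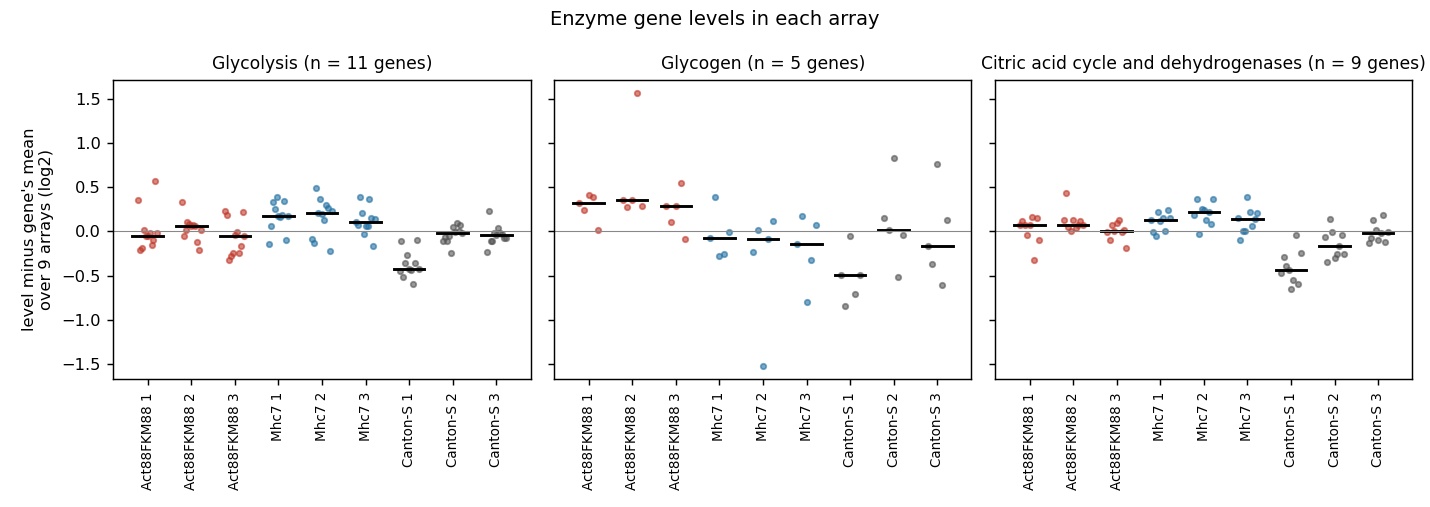
Deviation of each measured glycolytic, glycogen and citric acid cycle gene from its mean over the 9 arrays (log2), by array, with bars for the pathway medians, for 3 arrays each of Act88FKM88, Mhc7 and Canton-S. Canton-S 1 lies below the rest, with a glycolytic median of -0.42 and a citric acid cycle median of -0.44.

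The general upward shift also depended on scaling. When the arrays were given one common distribution by repeated quantile normalization, the median of the 26 enzymes was -0.05 in Act88FKM88, with 10 genes above 0 and 16 below. In Mhc7 it became 0.00, with 14 above and 12 below. After each array's intensity trend was removed by loess, the medians were -0.17 and -0.09. The median of the strong probe sets moved likewise, to 0.03 and 0.00 after quantile normalization and to 0.02 and -0.04 after loess. No direction is therefore given for the enzymes as a whole.

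**Figure D3:**
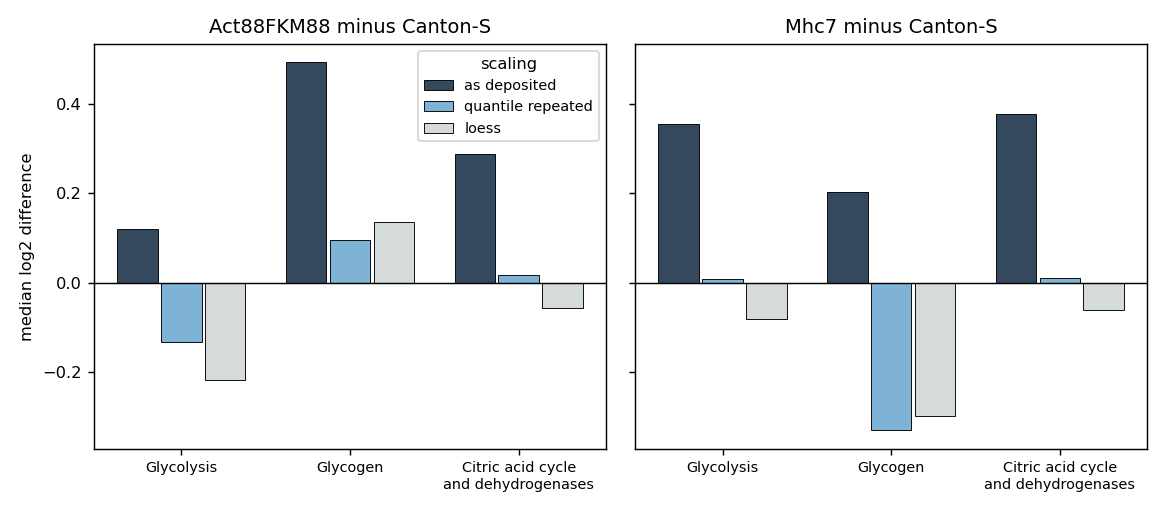
Median log2 difference of the measured enzyme genes by pathway under the deposited scale and under the alternative scalings, for each mutant minus Canton-S. Pathway medians are above 0 on the deposited scale, while the median of glycolysis in Act88FKM88 is -0.13 with quantile normalization repeated and -0.22 with loess.

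Both enzymes that passed the threshold belong to glycogen synthesis: UGP, higher in Act88FKM88, and AGBE, lower in Mhc7. UGP encodes UDP-glucose pyrophosphorylase, which makes the activated glucose that glycogen synthase uses. Its log2 level was 4.02, 5.19 and 4.18 in Act88FKM88, 3.37, 3.54 and 3.31 in Mhc7, and 2.92, 3.11 and 3.01 in Canton-S. All Act88FKM88 arrays were above all Mhc7 arrays, and all of these above Canton-S. UGP rose 2.72-fold in Act88FKM88 (log2 difference 1.45 ± 0.26, 95% interval 0.86 to 2.03, adjusted p = 0.0203). In Mhc7 the difference was 0.39 ± 0.26 and not past the threshold (adjusted p = 0.527).

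The rise of UGP held in all 16 other settings of the limma fit, with values between 1.08 and 1.67. Averaging a gene's probe sets, among these settings, repeats the main value, as UGP has 1 probe set. The lowest came when Act88FKM88 2, the array with the highest UGP level, was left out (adjusted p = 0.00361). SAM did not call it. The Canton-S level of UGP was close to the array median, near the floor, so the size of the fold is uncertain. Markers of other muscle types varied between arrays. For 3 measured markers of 5 listed for jump and tubular muscle, the summed linear level was 4240, 13197 and 2285 in Act88FKM88, 1308, 1057 and 2790 in Mhc7, and 791, 3761 and 5727 in Canton-S. Act88FKM88 2 was thus highest both for UGP and for these markers, of which none was past the threshold in either mutant. Their part in the UGP result was not tested.

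AGBE encodes the branching enzyme, which gives glycogen its branch points. It stood at 8.85, 8.80 and 8.73 in Act88FKM88, at 8.17, 6.92 and 7.64 in Mhc7, and at 8.39, 9.27 and 9.21 in Canton-S. The 3 Mhc7 arrays were the lowest of the 9, although the highest of them lay near Canton-S 1. AGBE fell 2.61-fold in Mhc7 (log2 difference -1.38 ± 0.31, 95% interval -2.09 to -0.68, adjusted p = 0.0376). In Act88FKM88 it was not past the threshold (-0.16 ± 0.31, 95% interval -0.87 to 0.54, adjusted p = 0.874).

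The fall of AGBE, which also has 1 probe set, was kept in 13 of 16 other settings of the fit, the averaging included. It did not hold when Canton-S 2 was left out (-1.23, adjusted p = 0.132), without Canton-S 3 (-1.26, adjusted p = 0.107) and without Mhc7 3 (-1.42, adjusted p = 0.114). It grew to -2.01 with quantile normalization repeated and -1.97 with loess. Mhc7 2, the array with the lowest AGBE level, also had the lowest summed jump and tubular muscle markers of the mutant arrays, and Canton-S 1, the lowest Canton-S array for AGBE, had the lowest of all. Yet Mhc7 1, with a marker sum of 1308, had the highest AGBE level of the Mhc7 arrays. In Act88FKM88 the marker sums spanned 2285 to 13197, while AGBE stayed between 8.73 and 8.85. Mhc7 2 had the highest summed fat body markers, at 2413. The part of these markers in the AGBE result was not tested.

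**Figure D4:**
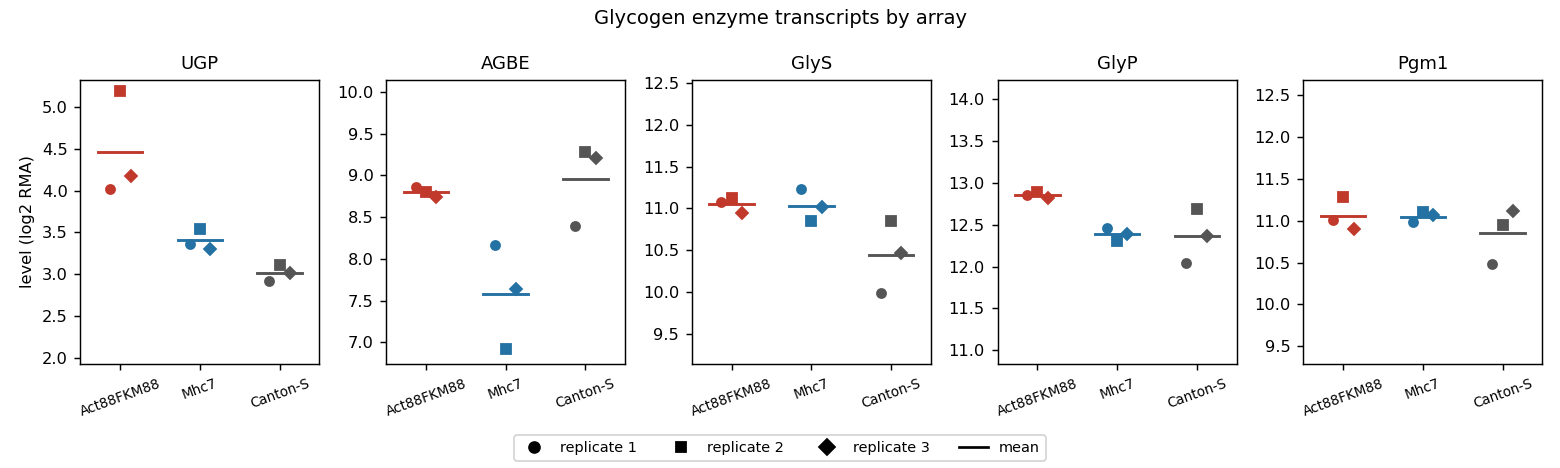
Log2 levels of the 5 glycogen genes on each array, with genotype means, for Act88FKM88, Mhc7 and Canton-S (3 arrays each). UGP is highest in Act88FKM88 (mean 4.46) and AGBE lowest in Mhc7 (mean 7.58), while GlyP, GlyS and Pgm1 stay within 1 log2 unit between genotype means.

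The median difference of the 5 glycogen genes was 0.49 in Act88FKM88 and 0.20 in Mhc7, but 0.09 and -0.33 with quantile normalization repeated, 0.14 and -0.30 with loess, and 0.33 and 0.02 without Canton-S 1. GlyP, GlyS and Pgm1 were not past the threshold in either mutant. GlyP, glycogen phosphorylase, which releases glucose phosphate from the polymer, had levels of 12.86, 12.89 and 12.82 in Act88FKM88, 12.46, 12.31 and 12.39 in Mhc7, and 12.04, 12.69 and 12.37 in Canton-S. The Act88FKM88 arrays lay above all the others, yet the difference from Canton-S was small (0.49 ± 0.14, adjusted p = 0.126), and that of Mhc7 was near 0 (0.02 ± 0.14, adjusted p = 0.969). For GlyS, glycogen synthase, the levels were 11.08, 11.12 and 10.94 in Act88FKM88, 11.23, 10.85 and 11.02 in Mhc7, and 9.99, 10.85 and 10.47 in Canton-S. Its differences were alike in size, at 0.61 ± 0.19 in Act88FKM88 (95% interval 0.17 to 1.05, adjusted p = 0.166) and 0.60 ± 0.19 in Mhc7 (adjusted p = 0.147), and the lowest array was again Canton-S 1. Pgm1, phosphoglucomutase, which links glycogen to glycolysis, differed by 0.21 in Act88FKM88 (adjusted p = 0.609) and 0.20 in Mhc7 (adjusted p = 0.606).

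Of the 11 glycolytic genes, none rose or fell in limma in either mutant, and SAM called none. At an unadjusted p under 0.05, 1 was higher in Act88FKM88 and 7 were higher in Mhc7, where 49.2% and 58.9% of the strong probe sets were. Hex-C, Pglym78 and Pglym87 were below the level of 9 that defines strong probe sets. The median difference of the 11 genes was 0.12 in Act88FKM88 and 0.35 in Mhc7. Quantile normalization turned the Act88FKM88 median to -0.13 and left that of Mhc7 at 0.01, and loess gave -0.22 and -0.08.

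At the entry of the pathway, Hex-A, the hexokinase that phosphorylates glucose, had levels of 9.64, 9.61 and 9.51 in Act88FKM88, 9.14, 9.20 and 9.39 in Mhc7, and 8.83, 9.18 and 9.05 in Canton-S. All Act88FKM88 arrays lay above the others. Its difference in Act88FKM88 had an adjusted p of 0.0263 but was under 2-fold, at 1.48-fold (0.57 ± 0.11, 95% interval 0.32 to 0.81). In Mhc7 the difference was 0.23 ± 0.11 (adjusted p = 0.336). The second hexokinase gene on the list, Hex-C, was near background.

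The next enzyme showed the reverse order of the mutants. Pgi, phosphoglucose isomerase, was at 11.59, 11.80 and 11.46 in Act88FKM88, at 12.12, 12.28 and 12.17 in Mhc7, and at 11.27, 11.68 and 11.68 in Canton-S. Mhc7 arrays were above all others, and Act88FKM88 overlapped with Canton-S. The Mhc7 difference was 1.57-fold, with an adjusted p of 0.023 (0.65 ± 0.13, 95% interval 0.35 to 0.95), and that of Act88FKM88 was 0.07 (adjusted p = 0.859).

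Pfk, phosphofructokinase, the main control point of the pathway, had levels of 11.79, 11.88 and 11.50 in Act88FKM88, 12.03, 11.98 and 11.98 in Mhc7, and 11.41, 11.73 and 11.67 in Canton-S. Only the Mhc7 arrays stood clear of Canton-S (0.39 ± 0.12, adjusted p = 0.117). Ald1, the aldolase that splits fructose bisphosphate, differed by 0.42 ± 0.14 in Mhc7 (adjusted p = 0.145). A second probe set of Ald1, with levels of 5.68, 6.23 and 5.71 in Mhc7 against 4.79, 5.17 and 5.09 in Canton-S, gave 0.86 ± 0.20 (adjusted p = 0.0404), still under 2-fold. For Tpi, triose phosphate isomerase, the Mhc7 difference was 0.29 ± 0.12 (adjusted p = 0.273).

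The energy-yielding steps that follow showed like sizes. Gapdh1, glyceraldehyde phosphate dehydrogenase, had levels of 13.42, 13.50 and 13.43 in Act88FKM88, 13.59, 13.56 and 13.49 in Mhc7, and 12.99, 13.42 and 13.47 in Canton-S. Leaving Canton-S 1 aside, these values are within 0.2 of each other, and neither difference passed (0.15, adjusted p = 0.637 in Act88FKM88; 0.25 ± 0.12, adjusted p = 0.347 in Mhc7). Pgk, phosphoglycerate kinase, was at 11.65, 11.87 and 11.57 in Act88FKM88, 12.00, 12.11 and 12.18 in Mhc7, and 11.22, 11.90 and 11.80 in Canton-S, with a Mhc7 difference of 0.46 ± 0.17 (adjusted p = 0.208). Pglym78, phosphoglycerate mutase, had levels of 8.18, 8.16 and 8.11 in Act88FKM88, 8.62, 8.55 and 8.42 in Mhc7, and 7.92, 8.28 and 8.25 in Canton-S. Its Mhc7 difference was 0.38 ± 0.11 (adjusted p = 0.0934), under 2-fold. Eno, enolase, differed by 0.35 ± 0.11 in Mhc7 (adjusted p = 0.122), and its Mhc7 arrays did not overlap with Canton-S. The related Pglym87 was near background.

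Gpdh1 encodes the cytosolic glycerol phosphate dehydrogenase of the shuttle. It stood at 12.96, 12.82 and 12.73 in Act88FKM88, 13.19, 12.88 and 13.05 in Mhc7, and 12.47, 13.05 and 12.75 in Canton-S. The genotypes overlapped, with differences of 0.08 in Act88FKM88 (adjusted p = 0.873) and 0.28 ± 0.15 in Mhc7 (adjusted p = 0.397). Gpdh1 has 4 probe sets, and in its second strong one the Mhc7 arrays, at 12.56, 12.42 and 12.47, lay above those of Canton-S, at 11.90, 12.26 and 12.16, and above Act88FKM88. That difference was not past the threshold (0.38 ± 0.12, adjusted p = 0.122).

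Among the 9 citric acid cycle and dehydrogenase genes, limma called none in either mutant and SAM none. At an unadjusted p under 0.05, 5 were higher in Act88FKM88 and 6 in Mhc7, where 49.2% and 58.9% of the strong probe sets were. Idh, Mdh1 and ScsbetaG were below the level of 9 that defines strong probe sets. The median difference of the 9 genes was 0.29 in Act88FKM88 and 0.38 in Mhc7. It was 0.02 and 0.01 with quantile normalization repeated and -0.06 in each with loess.

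Idh3g, the gamma subunit of the NAD-dependent isocitrate dehydrogenase, had the lowest adjusted p of the group. Its levels were 12.11, 12.17 and 12.13 in Act88FKM88, 12.15, 12.28 and 12.42 in Mhc7, and 11.38, 11.74 and 11.94 in Canton-S. Both mutants lay above every Canton-S array, by 0.45 ± 0.14 in Act88FKM88 (adjusted p = 0.137) and by 0.60 ± 0.14, or 1.51-fold, in Mhc7 (adjusted p = 0.0386). Of the other subunits of the same enzyme, Idh3a differed by 0.10 (adjusted p = 0.79) in Act88FKM88 and 0.01 (adjusted p = 0.986) in Mhc7. Idh3b differed by 0.13 (adjusted p = 0.702) in Act88FKM88 and 0.31 (adjusted p = 0.271) in Mhc7.

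mAcon1, the mitochondrial aconitase, was at 13.44, 13.49 and 13.35 in Act88FKM88, 13.49, 13.55 and 13.51 in Mhc7, and 12.89, 13.30 and 13.23 in Canton-S. Its differences were 0.29 ± 0.11 in Act88FKM88 (adjusted p = 0.258) and 0.38 ± 0.11 in Mhc7 (adjusted p = 0.0992), both under 2-fold. Succinyl-CoA synthetase, which makes a nucleoside triphosphate directly in the cycle, was measured through its subunit genes. ScsbetaA, the ADP-forming beta subunit, had levels of 11.75, 11.62 and 11.71 in Act88FKM88, 11.73, 11.71 and 11.80 in Mhc7, and 11.03, 11.32 and 11.56 in Canton-S. All Canton-S arrays were below all mutant arrays, by 0.39 ± 0.12 for Act88FKM88 (adjusted p = 0.163) and 0.44 ± 0.12 for Mhc7 (adjusted p = 0.0894). Scsalpha1, the alpha subunit, differed by 0.35 ± 0.14 in Act88FKM88 (adjusted p = 0.281) and 0.41 ± 0.14 in Mhc7 (adjusted p = 0.162). ScsbetaG, the GDP-forming beta subunit, was near background in every genotype.

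Mdh1 and Idh, the other dehydrogenases measured in this group, gave weaker signals. Mdh1, malate dehydrogenase, had levels of 6.84, 7.01 and 6.75 in Act88FKM88, 7.09, 7.30 and 7.15 in Mhc7, and 6.70, 6.68 and 6.93 in Canton-S. Its Mhc7 arrays were clear of Canton-S (0.41 ± 0.11, adjusted p = 0.0695, under 2-fold), while the Act88FKM88 difference was 0.10 (adjusted p = 0.755). Idh, the NADP-dependent isocitrate dehydrogenase, differed by 0.39 in Act88FKM88 (adjusted p = 0.308) and 0.32 in Mhc7 (adjusted p = 0.371).

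For most of these genes the data bound the change. The 95% interval of the difference lay within 2-fold for 24 of the 26 genes in each comparison. The exceptions were GlyS and UGP in Act88FKM88, GlyS and AGBE in Mhc7, and AGBE and UGP between the mutants. These intervals are those of the chosen probe sets. On the present scale, then, a 2-fold change was outside them for all 11 glycolytic and 9 citric acid cycle genes in both mutants. This includes the background-level genes, whose values could hide larger changes in RNA. Weaker probe sets were less bounded. In Mhc7 the second Ald1 probe set had an interval of 0.41 to 1.30, and a weak one of Gpdh1 had -1.19 to 0.61.

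The mutants were then compared directly. In Act88FKM88 against Mhc7, 2 enzyme genes rose, AGBE and UGP, beside 0.757% of all probe sets, and none fell, beside 1.03%. AGBE differed by 1.22 ± 0.31 (adjusted p = 0.0936) and UGP by 1.06 ± 0.26 (adjusted p = 0.0796). SAM called AGBE and not UGP. Each call was kept in 7 of 16 other settings, with AGBE between 0.89 and 1.51 and UGP between 0.69 and 1.28. Of the 9 fits that left out 1 array, only those without Canton-S 1 or Mhc7 1 kept AGBE, and only those without Act88FKM88 1 or Act88FKM88 3 kept UGP. UGP was lowest without Act88FKM88 2 and AGBE without Mhc7 2.

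Pgi was the clearest glycolytic difference between the mutants, at -0.57 ± 0.13 (adjusted p = 0.0616, under 2-fold), with no overlap. Hex-A ran the other way, at 0.34 ± 0.11 (adjusted p = 0.185). The ranges of the mutants did not overlap for 5 enzymes that were higher in Act88FKM88 and 6 that were lower, beside 8.07% and 10.1% of all probe sets. Of the 508 strong probe sets, 64 were higher and 171 lower without overlap, against 3 and 4 of the 18 enzymes at such levels. The glycogen median was 0.47 and the glycolytic median -0.20, while all probe sets had a median of -0.01 and the strong ones -0.11.

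Other genes of the same pathways gave a similar picture of few calls. Of 15 measured genes of 21 listed for the rest of the citric acid cycle and pyruvate oxidation, limma called none in either mutant. At an unadjusted p under 0.05, 6 were higher in Act88FKM88, and 10 were higher and 2 lower in Mhc7, beside the 49.2% and 58.9% of strong probe sets that were higher. Pdk, Pdp, Men, Got1 and Got2 of this list were below the level of 9 that defines strong probe sets. Mpc1, a subunit of the carrier that brings pyruvate into mitochondria, differed by 0.54 ± 0.12 in Act88FKM88 (adjusted p = 0.0544) and 0.65 ± 0.12 in Mhc7 (adjusted p = 0.0184), both under 2-fold. SdhC, a subunit of succinate dehydrogenase, differed by 0.42 in Act88FKM88 (adjusted p = 0.244). Got1, an aspartate aminotransferase, differed by -0.95 ± 0.20 in Mhc7 (adjusted p = 0.025), just under 2-fold, and passed at -1.15 with quantile normalization repeated.

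Of 10 measured genes of 13 listed for trehalose use and the rest of glycogen metabolism, limma also called none in either mutant. At an unadjusted p under 0.05, 1 was higher in Act88FKM88 and 2 in Mhc7, beside 8.96% and 10.3% of all probe sets. Treh, trehalase, which splits the blood sugar trehalose into glucose, differed by 0.56 in Act88FKM88 (adjusted p = 0.282), and Pgm2a by 0.31 (adjusted p = 0.508). Gyg, glycogenin, which primes new glycogen, differed by 0.98 ± 0.33 in Mhc7 (adjusted p = 0.159), and CG8475 by 0.54 (adjusted p = 0.258).

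Among 12 measured genes of 17 listed for other sugar and phosphate metabolism, 1 rose in Act88FKM88, beside 1.48% of all probe sets. Argk1, the arginine kinase that buffers ATP in insect muscle, was at 13.14, 13.25 and 13.01 in Act88FKM88, 12.58, 12.96 and 12.90 in Mhc7, and 11.78, 12.05 and 12.26 in Canton-S. All mutant arrays were above all Canton-S arrays. It rose by 1.10 ± 0.14 in Act88FKM88 (adjusted p = 0.0049) and differed by 0.78 ± 0.14 in Mhc7 (adjusted p = 0.0148, under 2-fold). The call in Act88FKM88 was lost at the fold limit, with a lowest value of 0.75, when quantile normalization was repeated, with loess and without Canton-S 1. Rpi, ribose phosphate isomerase of the pentose phosphate pathway, differed by -0.94 in Act88FKM88 (adjusted p = 0.0134) and -0.91 ± 0.15 in Mhc7 (adjusted p = 0.00934), just under 2-fold. With quantile normalization repeated it was past the threshold in both, at -1.22 in Act88FKM88 and -1.13 in Mhc7.

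Of 23 measured paralogues of the enzymes, 20 were below a level of 4 on every array. Limma called none of the 23, and at an unadjusted p under 0.05 there were 0 in Act88FKM88 and 2 lower in Mhc7 (6.52% of all probe sets were lower). The smallest p-values belonged to CG7059 (-0.20, adjusted p = 0.412) and Gpdh3 (-0.19, adjusted p = 0.475) in Act88FKM88 and to Gpdh2 (-0.29, adjusted p = 0.16) and Gpdh3 (-0.26, adjusted p = 0.246) in Mhc7. Downstream, 1 of 53 measured respiratory chain and ATP synthase genes rose in each mutant, beside 1.48% and 2.40% of all probe sets. This was the complex III subunit gene UQCR-11, by 1.21 ± 0.22 in Act88FKM88 (adjusted p = 0.0203) and 1.10 ± 0.22 in Mhc7 (adjusted p = 0.0206). In Mhc7 the UQCR-11 difference was 0.99 and under 2-fold without Canton-S 2 and also with loess, and 0.90 without Mhc7 3. The list's medians were 0.21 in Act88FKM88 and 0.30 in Mhc7. Those of glycolysis were 0.12 and 0.35, and those of the citric acid cycle genes 0.29 and 0.38.

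The array holds 7 control probe sets named for GAPDH, which were kept out of the fits. In Mhc7 against Canton-S, 5 of them were higher without overlap, by 0.48 to 1.56, and the other 2 overlapped (0.28 and -0.23). Of all probe sets in the fits 11.8% were higher without overlap, and of those at a mean level of 9 or more 65.0% were. AFFX-Dros-GAPDH_3_at had levels of 11.49, 11.90 and 11.34 in Act88FKM88, 12.43, 12.67 and 12.44 in Mhc7, and 11.05, 11.36 and 11.60 in Canton-S. The Mhc7 arrays were above all others. The Mhc7 difference was 1.18, with an exact permutation p of 0.1, the smallest that 3 against 3 arrays allow, and that of Act88FKM88 was 0.24 (exact permutation p = 0.5). The sources used here do not say which gene each control targets. One of them, AFFX-r2-Dros-GAPDH-3_at, followed Gpdh1 to within 0.0645 on every array, while its gap to Gapdh1 reached 0.69.

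**Figure D5:**
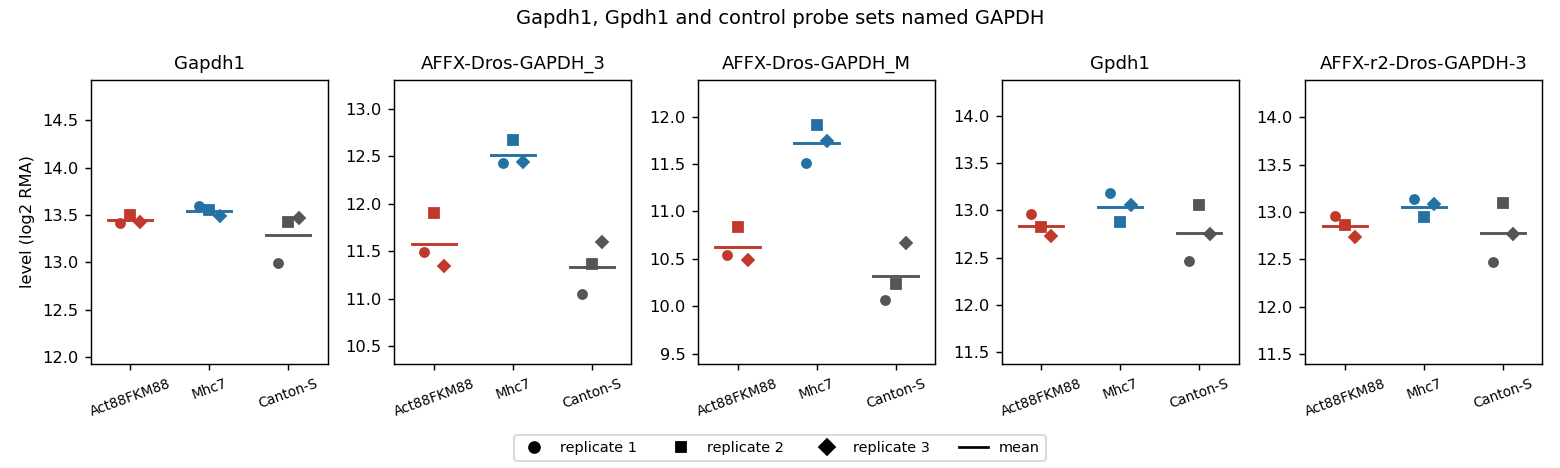
Log2 levels of 3 array control probe sets named for GAPDH beside those of Gapdh1 and Gpdh1 on each array, for Act88FKM88, Mhc7 and Canton-S. AFFX-Dros-GAPDH_3_at is 1.18 higher in Mhc7 than in Canton-S, against 0.25 for Gapdh1, and AFFX-r2-Dros-GAPDH-3_at lies on Gpdh1.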

How the data were processed

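The authors deposited 1 log2 expression value per probe set and array, made by RMA (robust multi-array average) per the submitters' processing notes. Its version, and whether all 9 arrays were normalized together, are not given in the sources used here. Per the labels, muscle was dissected from thoraces held overnight in 70% ethanol, and 6 µg of total RNA was labelled with biotin. The labels describe the 3 arrays of a genotype as biological replicates. There is no read depth, and the number of arrays limits the precision.

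Genes were named from the platform annotation, and symbols were updated through a RefSeq gene table (GlyP and GlyS are Glyp and Glys there). After 183 of 18952 probe sets were left out as controls, 18769 were tested with no filter on level. A mean per genotype was fitted with limma 3.58.1 in R 4.3.3, with Benjamini-Hochberg adjustment over all probe sets and two-sided p-values. The ± values are standard errors of the contrast (n = 3 arrays per genotype). Of the enzymes, 6 have a probe set marked as shared by similar transcripts (Pgi, Ald1, Tpi, Eno, GlyS and Idh). Control probe sets were compared by two-sided exact permutation.

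All listed enzymes were named. Of each other list, up to 2 genes per direction past the threshold were named per mutant, or failing any, those 2 with the smallest p. Marker lists of other cell types where none passed are given by counts, with their lowest adjusted p. The enzymes and lists were chosen with earlier results of these data known. Alternatives were repeated quantile normalization, a filter on level, other thresholds, a trended variance prior, fits on 6 arrays, SAM, removal of each array, a replicate block and averaging a gene's probe sets. Averaging was applied to the enzymes only and could change just Ald1, Gpdh1 and ScsbetaG, which have several probe sets. For any other gene it repeats the main difference, though it counts among the 16 settings. Removal of the intensity trend by loess was chosen after seeing the data. The steps were tested on simulated data.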

Additional observations from a re-analysis of the deposited data

Results flagged for a closer look

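The difference between the mutants, tested directly in limma, was past the threshold for 2 of the enzymes, both higher in Act88FKM88. Of all probe sets, 0.757% were higher past the threshold and 8.07% were higher without overlap. AGBE differed by 1.22 between Act88FKM88 and Mhc7 (adjusted p = 0.0936), with no overlap of the arrays. UGP differed by 1.06 (adjusted p = 0.0796), also with no overlap. Each call was kept in 7 of 16 other settings of the fit, and in 2 of the 9 among them that left out 1 array. SAM called AGBE and not UGP.

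Of 7 control probe sets named for GAPDH, outside the fits, 5 gave higher levels in all Mhc7 arrays than in all Canton-S arrays. The other 2, AFFX-r2-Dros-GAPDH-3_at (0.28) and AFFX-r2-Dros-GAPDH-3_a_at (-0.23), overlapped. Of all probe sets in the fits 11.8% were higher in Mhc7 without overlap, and of those at a mean level of 9 or more 65.0% were. The differences were 1.18, 1.56 and 1.40 for the 3', 5' and middle AFFX-Dros-GAPDH probe sets. For AFFX-r2-Dros-GAPDH-5_a_at and AFFX-r2-Dros-GAPDH-M_a_at they were 0.50 and 0.48. The exact permutation p was 0.1 for each of the 5, the smallest that 3 against 3 arrays allow. For the same 5, the differences of Act88FKM88 from Canton-S were 0.24, 0.39, 0.30, 0.19 and 0.07.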

How the results depend on the processing

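With quantile normalization repeated, 1 enzyme was called between the mutants and 266 probe sets in Mhc7, and loess gave 278 of these. The higher and lower calls then were 129 and 124 in Act88FKM88 (278 and 62 as deposited), 144 and 122 in Mhc7 (451 and 73) and 141 and 146 between the mutants (142 and 194). With loess they were 130 and 109, 158 and 120, and 171 and 158. With no minimum fold, 2 enzymes were called in Act88FKM88 and 7 in Mhc7, and 953, 1334 and 740 probe sets were called in the 3 comparisons. SAM called 0 enzymes in each mutant, 1 between them, and 176 probe sets in Act88FKM88. Between the mutants, the fit on 6 arrays and an adjusted p under 0.05 each called 0 enzymes. Whether the replicate numbers pair the arrays was not settled. Correlations of same-numbered deviations ran from -0.32 to 0.43 over the 3 comparisons. Between the mutants they were 0.14, 0.43 and 0.03, against -0.38 to 0.27 for differently numbered arrays. With a replicate block, 1 enzyme was called between the mutants, where AGBE was lost (adjusted p = 0.153).

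Leaving out 1 array at a time gave 1 enzyme in Act88FKM88 each time, 0 to 1 in Mhc7 and 0 to 1 between the mutants. Probe sets called were 218 to 390, 396 to 648 and 192 to 400. The fewest came without Canton-S 1 in both mutants and without Act88FKM88 1 between them. The split in Act88FKM88 was 213 and 95 without Act88FKM88 2. Of the 78 enzyme differences, 23 changed sign with quantile normalization, 36 with loess and 9 without Canton-S 1, and none of these was past the threshold. Levels near the array median limit UGP, and the 3 arrays per genotype limit all comparisons.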

Other observations

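Outside the listed enzymes, the mutants also differed directly in 2 genes beside the citric acid cycle, chosen after their values were seen. Got1, an aspartate aminotransferase, rose in Act88FKM88 against Mhc7 (1.44 ± 0.20, adjusted p = 0.0069), and this call was kept in all 16 other settings. PCB, pyruvate carboxylase, which refills the cycle with oxaloacetate, fell in Act88FKM88 against Mhc7 (-1.46 ± 0.31, adjusted p = 0.0449). That call was kept in 12 of 16 settings, among them the averaging of probe sets, which was not applied to the 2 of PCB. It was lost in the fit on 6 arrays (adjusted p = 0.115) and without Act88FKM88 1 (-1.39, adjusted p = 0.172), Mhc7 2 (-1.23, adjusted p = 0.146) or Mhc7 3 (-1.56, adjusted p = 0.116).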
